A study of Rattus norvegicus with 6 samples.

Results

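The 2 libraries of the BMPR2 tail domain mutant were compared directly with the 2 libraries of the BMPR2 kinase domain mutant. They are 4 of the 6 RNA sequencing libraries made from H9c2 cells, a myoblast line from embryonic rat heart that one label writes as Hc92. Genes entered the comparison when they had 10 or more counts in at least 2 of these 4 libraries. This kept 11927 of the 26404 genes in the files. A further 9612 genes had no count in any of the 4 libraries, and 4865 had counts but too few.

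Besides the BMPR2 tail domain mutant and the BMPR2 kinase domain mutant, the study holds cells given an empty vector as the control for both. Each of these 3 groups has replicates 1 and 2, and all are the same cell line. The sample titles speak of domain mutants, while the series' design text speaks of cells lacking the domain. The construct, the way it was introduced, whether the rat's own Bmpr2 was still expressed, and whether a group was 1 clone or a pool are all not stated in the labels. Since separate cultures are not named for the replicates, the p-values rest on the spread among these libraries alone, which may be technical.

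Bone morphogenetic proteins signal through pairs of type I and type II receptors, and BMPR2 is one of the latter. Its kinase domain phosphorylates a type I receptor after ligand binding, and the type I receptor then phosphorylates SMAD transcription factors. Beyond the kinase domain it carries a long cytoplasmic tail that type I receptors lack, which binds cytoskeletal and other regulatory proteins. Heterozygous BMPR2 mutations, in either domain, are the main known cause of heritable pulmonary arterial hypertension, in which the right heart works against raised pressure. The comparison asks how expression in cells with one altered domain differs from that in cells with the other.

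The 4 libraries held between 19116082 and 22772673 counts in genes, and the empty vector libraries 20291259 and 24936136. Between 11705 and 11852 genes reached 10 counts in each mutant library. The files give Ensembl identifiers without names, and 0 of the 26404 matched the rat gene table used here. Bmpr2 and the markers of myoblasts and other cell types were therefore not looked up, and the labels were not checked against them. Genes are described by level and difference, and only 4 are printed by identifier. The bulk RNA of a library is measured here, so fewer cells of a type and less RNA per cell cannot be told apart.

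The replicates of a mutant differed from each other about as much as the mutants did. Tail mutant replicate 2 stood apart from the other 3 mutant libraries. It was at least 2-fold away from tail mutant replicate 1 in 1569 genes, or 13.2% of those tested. It was that far from kinase mutant replicate 1 in 1398 genes and from kinase mutant replicate 2 in 1762 genes. Tail mutant replicate 1 was closer to both kinase mutant libraries than to its own replicate. It differed at least 2-fold from kinase mutant replicate 2 in 521 genes (4.37%) and from kinase mutant replicate 1 in 911 genes (7.64%). Whether a library was exchanged was not tested, and each difference between the mutants rests on the labels as given. The kinase mutant replicates differed from each other in 946 genes (7.93%). The closest pair of the 4 libraries thus consisted of a tail and a kinase mutant library, closer than the empty vector replicates, which differed in 645 genes (5.41%). These counts are of single log2 CPM values (counts scaled to the library's total in tested genes by TMM, with a prior count of 2).

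**Figure D1:**
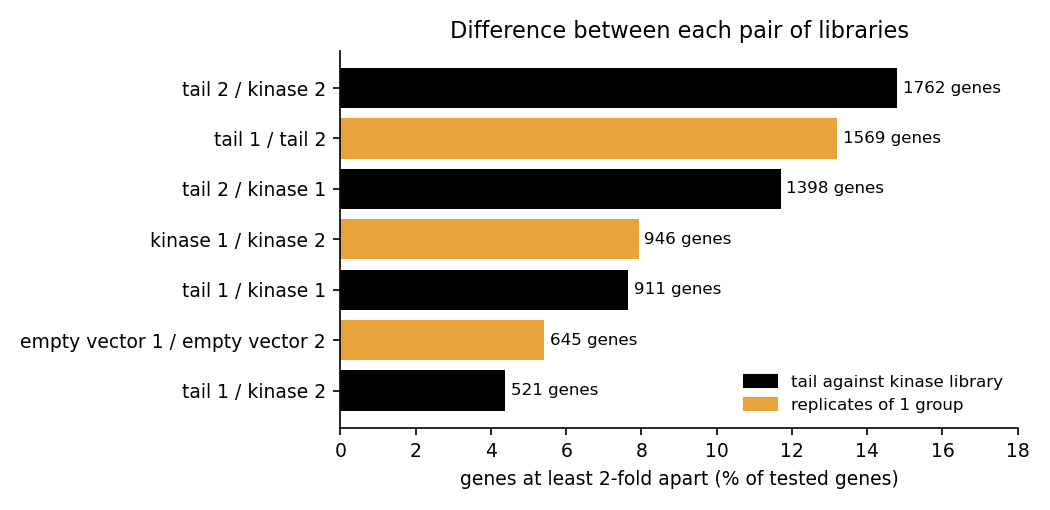
Share of the 11927 tested genes at least 2-fold apart between 2 libraries, in percent, for the 6 pairs of mutant libraries and the empty vector replicates, with the number of genes at each bar. The pairs with tail mutant replicate 2 are the 3 largest (1398 to 1762 genes), and a tail and kinase pair is the smallest (521).

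Across genes, Pearson's r of log2 CPM was 0.946 between the tail mutant replicates and 0.965 between the kinase mutant replicates. Over the 4 pairs of 1 tail with 1 kinase mutant library it ranged from 0.938 to 0.982. Genes are not independent replicates, and these values are a description. In a principal component analysis of the 4 libraries, the first component held 58.4% of the variance. Tail mutant replicate 2 scored 58.4 on it, and tail mutant replicate 1 scored -25.7. The kinase mutant libraries scored 2.23 and -34.9. The second component, with 27.1%, set kinase mutant replicate 1 (42.9) apart from the other 3 (-15.6 to -12.5). The third, with 14.5%, had tail mutant replicate 1 at 26.6, kinase mutant replicate 2 at -24.5 and the remaining libraries at -3.01 and 0.946. The first 2 components therefore each separated 1 library from the rest, and not the tail from the kinase mutant.

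The distance between libraries depended on the level of the genes, which were divided into 5 equal classes by mean log2 CPM over the 4 libraries. In class 1, the lowest, with a median of 1.60 CPM, the median absolute log2 difference was 0.623 between the tail mutant replicates and 0.502 between the kinase mutant replicates. For tail mutant replicate 1 set against kinase mutant replicate 2 it was 0.409. In class 5, the highest, with a median of 139 CPM, the same 3 values were 0.287, 0.196 and 0.126. In each of the 5 classes the 3 pairs with tail mutant replicate 2 were farther apart than the 3 pairs without it. Most of the fall with level lay between class 1 and class 2, whose median was 9.43 CPM.

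**Figure D2:**
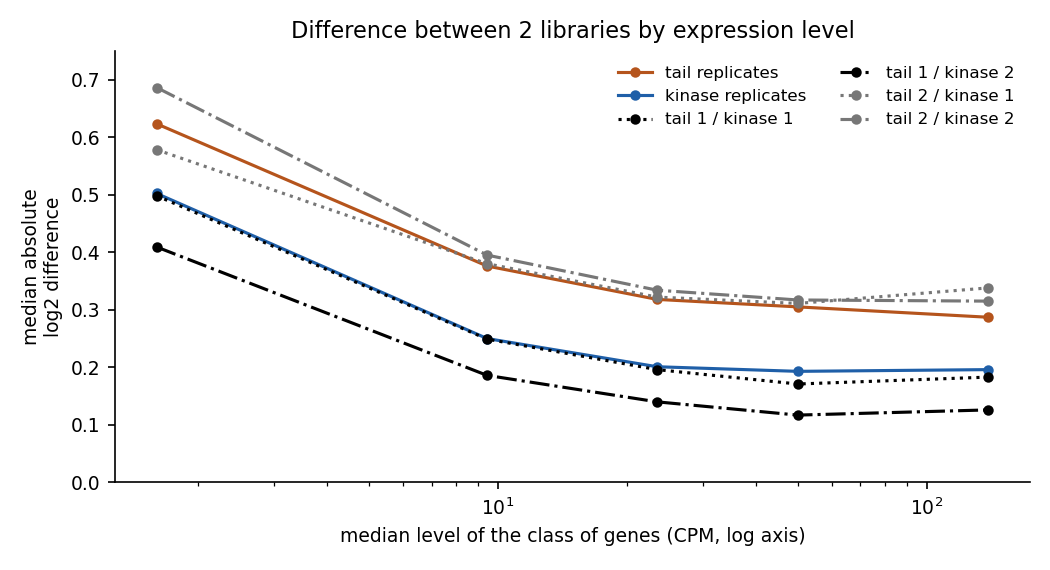
Median absolute log2 difference between 2 libraries (vertical axis) in 5 equal groups of genes ordered by level, drawn at the median CPM of each group (horizontal log axis). Solid lines join replicates of a mutant and broken lines tail and kinase mutant libraries. Tail mutant replicate 1 against kinase mutant replicate 2 is lowest throughout, from 0.409 to 0.117.

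No gene passed the test between the mutants. After Benjamini-Hochberg adjustment, edgeR's quasi-likelihood test called 0 of 11927 genes (0%) at an adjusted p below 0.05, and its smallest adjusted p was 0.33. An unadjusted p below 0.05 was reached by 443 genes (3.71%), of which 261 were lower in the tail mutant (2.19%) and 182 higher (1.53%). Chance alone gives 596 on average. Limma-voom also called 0 genes (0%), with a smallest adjusted p of 0.389 and 403 genes (3.38%) at an unadjusted p below 0.05. DESeq2 called 13 genes (0.109%), of which 11 were lower in the tail mutant (0.0922%) and 2 higher (0.0168%), with 538 genes (4.51%) at an unadjusted p below 0.05.

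A p that misses the threshold does not show that the mutants acted alike, and the intervals say what size of difference was left within reach. The median 95% interval of a gene's change extended 0.613 on the log2 scale to each side, or 1.53-fold. For 7264 genes (60.9%) the interval lay wholly within a 2-fold difference in either direction. For the other 4663 it reached 2-fold or more. The share within 2-fold was 8.21% in class 1 by level, 60.8% in class 2 and 77.6% to 80.1% in classes 3 to 5. These intervals are for 1 gene at a time and are not adjusted for the number of genes. The 5% and 95% points of the fitted log2 changes were -0.71 and 0.61, and the median was 0.008.

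Most single libraries moved these counts by over 1.5 times. Without tail mutant replicate 1, so that replicate 2 alone stood for the tail mutant, the 443 genes became 2334 (1089 higher and 1245 lower) and edgeR called 1 gene, higher in the tail mutant. Without tail mutant replicate 2 they became 255 (82 higher and 173 lower), with 0 called. Leaving out kinase mutant replicate 1 gave 257 genes. Leaving out its replicate 2 moved the count little, to 499, of which 335 were lower. The count was 291 and 292 without empty vector replicate 1 or 2, whose libraries enter only the scaling and the estimate of spread. A library left alone in its group was assumed to vary like the other groups.

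**Figure D3:**
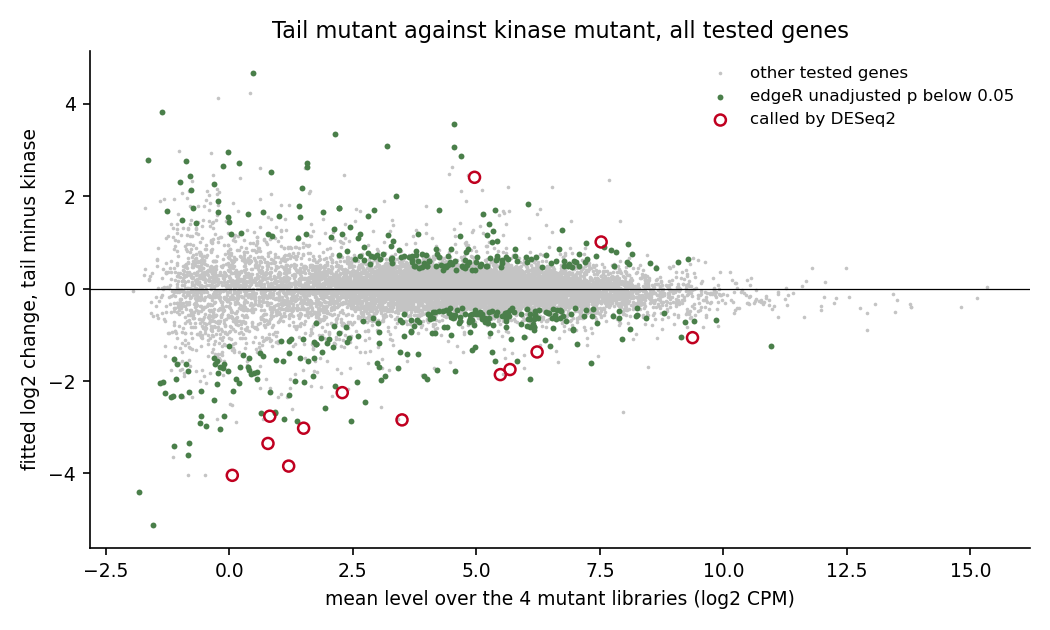
Fitted log2 change of the tail minus the kinase mutant (vertical axis) against the mean log2 CPM over the 4 libraries (horizontal axis) for 11927 genes. Green points are the 443 genes with an unadjusted edgeR p below 0.05, red circles the 13 genes called by DESeq2, of which 11 lie below 0. Changes spread most widely among genes of low level.

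Levels that do not overlap between the mutants are counted here without a test. In 3576 genes (30.0%) the levels of the tail mutant libraries did not overlap with those of the kinase mutant libraries. With only 2 libraries per mutant, many genes do so whatever the labels mean, so this share alone does not show a difference. Higher genes (1836, 15.4%) and lower genes (1740, 14.6%) in the tail mutant were nearly equal in number. With a fitted change of at least 1.5-fold, 881 genes (7.39%) remained apart, of which 539 were lower (4.52%) and 342 higher (2.87%). At 2-fold there were 364 (3.05%), of which 245 were lower (2.05%) and 119 higher (0.998%). At 4-fold there were 72 (0.604%), of which 52 were lower (0.436%) and 20 higher (0.168%). At 8-fold there were 14 (0.117%), of which 10 were lower (0.0838%) and 4 higher (0.0335%). Lower genes thus outnumbered higher ones at each of these folds. The 245 lower genes had a median of 3.61 CPM in the kinase mutant, while the 119 higher genes a median of 2.71 CPM in the tail mutant. Of the 364 genes, 252 lay in class 1 by level. In class 5, 19 were lower and 2 higher.

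Among genes apart by 2-fold or more, which direction held more of them depended on kinase mutant replicate 1. Among genes with an unadjusted edgeR p below 0.05, lower genes remained the more numerous without it. Without that library 740 genes were apart by 2-fold or more, 404 higher and 336 lower in the tail mutant. Without kinase mutant replicate 2 there were 722, 257 higher and 465 lower. Without tail mutant replicate 1 there were 1397 (503 higher and 894 lower), and without replicate 2 there were 525 (129 higher and 396 lower). Fewer libraries are a weaker criterion, so a larger number is what leaving one out gives by construction. The change of sides without kinase mutant replicate 1 is not given by it.

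A stricter count asks that the lowest library of one mutant, at 1 CPM or more, lie a given fold above the highest of the other, with counts under 3 raised to 3. At 2-fold, 45 genes were lower in the tail mutant (0.377%) and 15 higher (0.126%). At 4-fold, 8 were lower (0.0671%) and 2 higher (0.0168%). At 8-fold 1 gene was lower (0.00838%) and 0 were higher (0%). No gene was present in both libraries of one mutant at 10 or more counts and at 0 counts in both of the other. With fewer than 3 counts allowed in both libraries of the other, 1 gene was found in the tail mutant alone and 3 in the kinase mutant alone.

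The 4 genes printed by identifier are the 2 with the smallest edgeR p in each direction. Their intervals take no account of this choice, so the distance of an interval from 0 is not evidence of a difference. For ENSRNOG00000023337 the tail mutant libraries had 25.5 and 21.6 CPM and the kinase mutant libraries 79.9 and 90.6 CPM. The empty vector libraries had 103 and 96.8 CPM, so the tail mutant libraries were the low ones and the kinase mutant libraries were nearer to empty vector. The nearest libraries of the mutants were 3.13-fold apart. On the log2 scale the fitted change was -1.86 ± 0.18 (SE), and its 95% interval ran from -2.29 to -1.42. It did not pass in edgeR (adjusted p of 0.33 with Benjamini-Hochberg adjustment), while DESeq2 gave an adjusted p of 1.23e-14.

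ENSRNOG00000013262 was the gene more than 8-fold apart in every library. The tail mutant libraries had 0.410 and 0.724 CPM, from 9 and 15 counts, and the kinase mutant libraries 7.24 and 9.16 CPM, from 146 and 188 counts. Both empty vector libraries lay between them, at 2.68 and 2.79 CPM. The nearest mutant libraries were 9.99-fold apart. On the log2 scale the fitted change was -3.84 ± 0.40 (SE), and its 95% interval ran from -4.82 to -2.87. The interval takes no account of the choice by p. Without its kinase mutant libraries the gene would not have met the count filter. EdgeR's adjusted p was 0.33 (Benjamini-Hochberg), which did not pass, and that of DESeq2 was 4.05e-10.

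ENSRNOG00000012772 led the genes that were higher in the tail mutant by p. The tail mutant libraries had 254 and 268 CPM and the kinase mutant libraries 126 and 134 CPM. The empty vector libraries, at 286 and 196 CPM, lay around the tail mutant and above the kinase mutant. The replicates of each mutant were within 1.07-fold of each other and the nearest libraries of the mutants 1.89-fold apart. On the log2 scale the fitted change was 1.01 ± 0.22 (SE), and its 95% interval ran from 0.47 to 1.55. It did not pass in edgeR (adjusted p of 0.931 with Benjamini-Hochberg adjustment), and DESeq2 called it narrowly (0.0495).

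ENSRNOG00000006052 was low in both mutants. The tail mutant libraries had 0.912 and 1.06 CPM (20 and 22 counts), and the kinase mutant libraries had 0.198 and 0.244 CPM (4 and 5 counts). The empty vector libraries had 134 and 239 CPM. The tail mutant libraries were the higher of the mutant libraries without overlap, at levels far below both empty vector libraries. Between the mutants the fitted log2 change was 2.13 ± 0.51 (SE), and its 95% interval ran from 0.89 to 3.37. The gene met the count filter through its tail mutant libraries alone and was then chosen by its small p. The interval takes no account of either step, so its distance from 0 is not evidence of a difference. With no filter the log2 change was 2.12. The gene passed neither in edgeR (adjusted p of 0.931 with Benjamini-Hochberg adjustment) nor in DESeq2 (0.261).

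**Figure D4:**
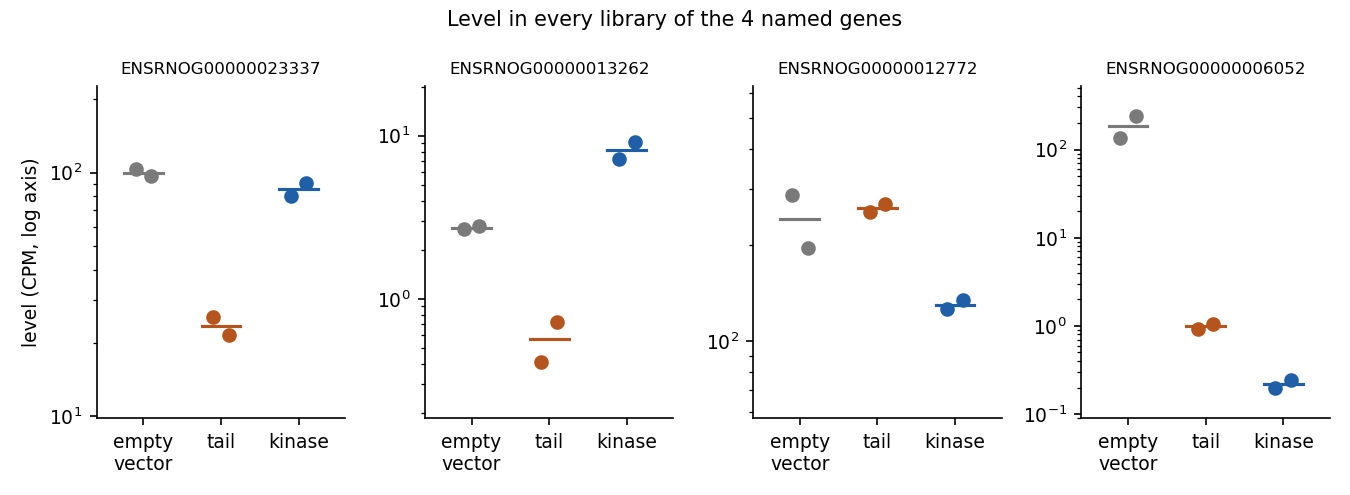
Level in CPM (vertical log axis, scaled to each gene) of the 4 printed genes in every library. Points are libraries and lines group means, n = 2 per group. In each panel the tail and kinase mutant points do not overlap, and empty vector lies near the kinase mutant, between the mutants, near the tail mutant and above both, from left to right.

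The 13 genes called by DESeq2 are described by their order of p, the first 2 being ENSRNOG00000023337 and ENSRNOG00000013262 and the gene in position 12 being ENSRNOG00000012772. In each of them the libraries of the mutants did not overlap and the unadjusted edgeR p lay below 0.05, from 3.28e-05 to 0.00755. The 11 lower genes were between 2.08-fold and 16.9-fold lower in the tail mutant by DESeq2's change, with a median of 6.84-fold. The 16.9-fold change, of the gene in position 13, rests on few counts. Its tail mutant libraries had 0.137 and 0.386 CPM, where 3 counts are 0.137 and 0.145 CPM. It met the count filter through its kinase mutant libraries alone, which had 1.34 and 7.40 CPM. Their mean level in the kinase mutant ran from 4.33 to 968 CPM, and 5 of them stayed below 10 CPM there.

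The 13 genes differed in which mutant departed from empty vector. In 5 of them the tail mutant libraries lay beyond both empty vector libraries on the side of the difference. The kinase mutant libraries did not lie beyond empty vector on the opposite side. Both held for 2645 of the 11927 tested genes (22.2%) and for 115 of the 364 apart by 2-fold or more (31.6%). The kinase mutant could still lie past empty vector on the tail mutant's side. It did so in the gene in position 1, with 79.9 and 90.6 CPM against 103 and 96.8 CPM in empty vector. The gene in position 4 is another of the 5. Its tail mutant libraries had 31.9 and 25 CPM, its kinase mutant libraries 119 and 72.3 CPM and its empty vector libraries 73.0 and 88.8 CPM. The gene in position 6 stood higher in the tail mutant, at 46.7 and 111 CPM against 21.1 and 8.52 CPM in the kinase mutant and 13.4 and 8.19 CPM in empty vector. Here both tail mutant libraries were above the empty vector range, and so was kinase mutant replicate 1, at a lower level.

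In another 5 genes, 38.5% of the 13, the kinase mutant libraries lay beyond empty vector on their side of the difference. The tail mutant libraries did not lie beyond it on the opposite side. The share over all tested genes was near this, at 36.5% (4357). Among the 364 genes apart by 2-fold or more the share was 48.4% (176). The tail mutant could still lie past empty vector on the kinase mutant's side, as it did in the gene in position 9. The gene in position 11, the most highly expressed of the 13, had 1093 and 843 CPM in the kinase mutant. It had 539 and 392 CPM in the tail mutant and 436 and 411 CPM in empty vector. The gene in position 9 had 5.26 and 3.41 CPM in the kinase mutant libraries, 0.501 and 0.773 CPM in those of the tail mutant and 0.409 and 0.343 CPM in those of empty vector. In both genes the tail mutant libraries lay closer to empty vector than the kinase mutant libraries did.

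In the remaining 3 genes the mutants lay on opposite sides of empty vector, as in 142 of all tested genes (1.19%) and 29 of the 364 apart by 2-fold or more (7.97%). They include ENSRNOG00000013262 and the gene in position 5, whose tail mutant libraries had 7.48 and 1.88 CPM, kinase mutant libraries 25.6 and 41.8 CPM and empty vector libraries 17.2 and 7.99 CPM. All positions use the same 2 empty vector libraries, and the genes were chosen for their difference between the mutants, so these counts are a description. Replicates were not always close: the higher tail mutant library was up to 3.97 times the lower, and the higher kinase mutant library up to 5.53 times the lower, the latter in the gene in position 13 (1.34 and 7.40 CPM).

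**Figure D5:**
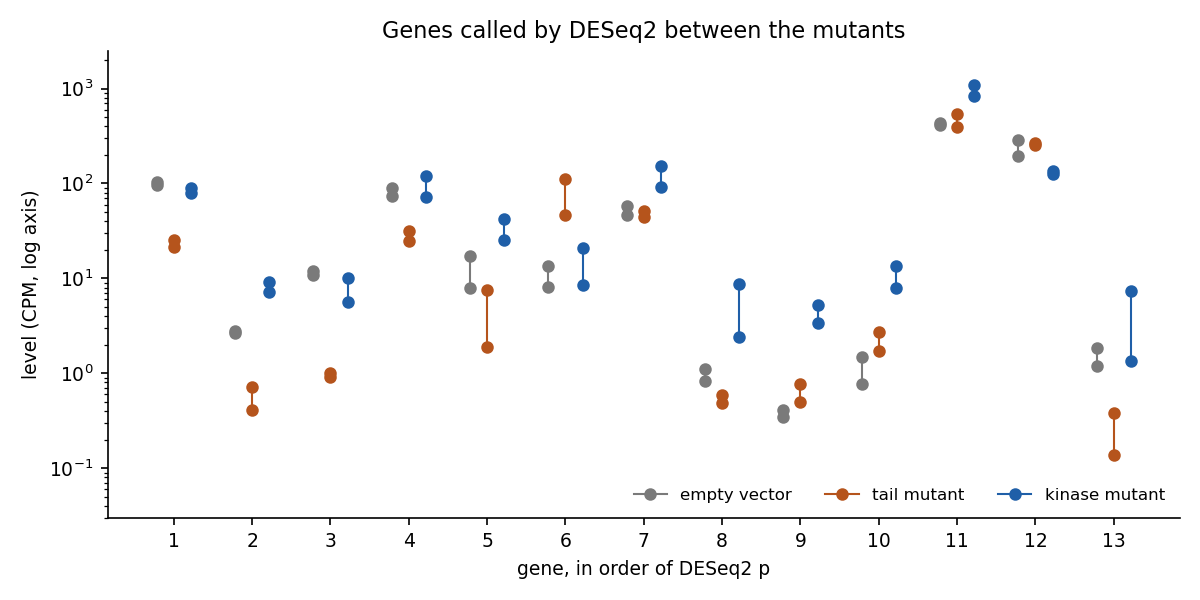
Level in CPM (vertical log axis) of the 13 genes called by DESeq2, in order of its p (horizontal axis), with 2 libraries per group joined by a line. Tail and kinase mutant libraries do not overlap in any of them, and 2 genes (6 and 12) are higher in the tail mutant.

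The DESeq2 calls also rested on single libraries. It called 732 genes without tail mutant replicate 1, of which 12 were among the 13, and 19 without tail mutant replicate 2, of which 5 were. Without kinase mutant replicate 1 it called 20 genes, 7 of them among the 13, and without kinase mutant replicate 2 it called 37, 5 of them among the 13. All 13 kept the direction of their change in each of these 4 fits. As their mutant libraries did not overlap, leaving 1 out could hardly reverse it, so this is no separate support. Without kinase mutant replicate 1 the calls were divided into 11 higher and 9 lower in the tail mutant.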

How the data were processed

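PolyA RNA of H9c2 cells was sequenced in 6 libraries, grouped by sample title. The authors deposited raw read counts per Ensembl rat gene. The submitters' processing notes name the genome build Rnor_5.0 and the tools HTSeq 0.6.1p1, STAR 2.4.0 and Trimmomatic 0.33. Strand setting and annotation release were not given in the sources used here, so whether a gene and its antisense partner were told apart is not known. Reads that aligned to more than 1 place (27.3% to 31.5% of all rows' total) enter no gene, which lowers the counts of near-identical genes. The 5 rows that name no gene entered neither library sizes nor tests.

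Genes with 10 or more counts in at least 2 of the 4 mutant libraries were tested in R 4.3.3 with edgeR 4.0.16. A gene could meet this filter through the libraries of 1 mutant alone, and p-values and intervals take no account of that. Libraries were scaled by TMM and dispersions were robust. The quasi-likelihood model held group as its only term over all 6 libraries, with 3 residual degrees of freedom and a median of 3.34 prior ones. The common biological coefficient of variation was 27.1%. P-values were adjusted by Benjamini-Hochberg over 11927 genes and called below 0.05. The SE is the change divided by the square root of F. DESeq2 1.42.0 and limma-voom (limma 3.58.1) were alternatives.

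The members, rules and lists were chosen with earlier results of these data known. Named genes were to have a symbol. As 0 identifiers matched, the rule's fallback applied (the 2 smallest p per direction), none of the 26 gene lists was tested, and no sequence is shown.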

Additional observations from a re-analysis of the deposited data

Results flagged for a closer look

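ENSRNOG00000013262 is listed because every tail mutant library lay below and every kinase mutant library above both empty vector libraries. The test of the difference between the mutants, a log2 change of -3.84, did not pass in edgeR (adjusted p of 0.33 with Benjamini-Hochberg adjustment).

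Uniquely aligned reads that the counting assigned to no annotated feature were not part of the comparison. They made up 24.2% of uniquely aligned reads in the tail mutant (23.0% and 25.3% in replicates 1 and 2) and 23.2% in the kinase mutant (23.9% and 22.6%). Empty vector had 22.5% and 21.3%. The ranges of the mutants overlapped, and tail mutant replicate 2 had the highest share.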

How the results depend on the processing

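EdgeR called 0 genes under median-ratio size factors, no filter, filterByExpr, the 4 mutant libraries alone and the replicate block, and limma-voom called 0, while DESeq2 called 13. Leaving out 1 library gave 0 to 1 edgeR calls, 255 to 2334 genes at an unadjusted p below 0.05 in place of 443, 525 to 1397 non-overlapping genes in place of 364, and 19 to 732 DESeq2 calls in place of 13. The 443 became 293 with only the 4 mutant libraries. The 364 became 72 at 4-fold and 152 with at least 5 CPM in the higher group. Genes tested were kept the same when a library was left out. The cause of these shifts was not tested.

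Nothing in the labels says that a replicate number marks a shared culture or day, and the same-numbered tail and kinase mutant libraries deviated from their group means in opposite ways (r of -0.366 across genes). With the replicate block 388 genes had an unadjusted p below 0.05, and the block changed no call. With the kinase mutant numbers crossed, added after the data were examined, there were 565 and again 0 calls.

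The 4 printed genes kept their direction in all 14 alternatives each. They were chosen by p in these data and their mutant libraries do not overlap, so a kept direction is no separate support. ENSRNOG00000023337 ranged from -1.98 to -1.74 on the log2 scale, ENSRNOG00000013262 from -4.30 to -3.49, ENSRNOG00000012772 from 0.96 to 1.05 and ENSRNOG00000006052 from 1.99 to 2.28. The first 3 passed with DESeq2 alone and their adjusted p otherwise reached up to 1. That of the last ranged from 0.199 to 1. Intervals were widest for genes of low level, where counts are few: the median 95% interval extended 2.48-fold to each side in the lowest of 5 classes by level and 1.58-fold in the next. The part of depth in this was not tested.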
